A study of Rattus norvegicus with 2 samples.

Results

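The ERBB receptors (Egfr, Erbb2, Erbb3 and Erbb4), 4 of their ligands (Nrg1, Hbegf, Areg and Btc), the receptor Met and its ligand Hgf were examined on 2 Affymetrix whole-transcript rat arrays. These 10 genes, of 18166 named on the arrays, were chosen by name, from the probe sets that the platform annotation pairs with exactly 1 gene symbol, and each had 1 such probe set. One array was of undifferentiated C6 glioma, a tumor cell line of rat glia for which the study's methods give a medium with serum. The other was of SMiNs, small molecule-induced cells made from that line over 35 days with 20 μM CHIR99021, a GSK3 inhibitor, and 100 μM forskolin, which activates adenylyl cyclase and so raises cAMP. The sample labels give the same growth and treatment text for both samples, while their titles and the study's methods describe untreated cells against cells plated on Matrigel and kept in a neural induction medium with BDNF and GDNF. Medium, coating, small molecules and time in culture therefore cannot be told apart. With 1 array per condition there is no spread between replicates, no test was possible, and every fold below describes this pair of arrays only.

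ERBB receptors are tyrosine kinases of the cell surface that signal as pairs. EGFR binds the EGF-like ligands, ERBB3 and ERBB4 bind neuregulins, and ERBB2 has no ligand of its own and serves as the preferred partner of the others. ERBB3 has little kinase activity and depends on that partner, mostly to drive PI3K signaling. MET is the receptor of HGF, a factor secreted by mesenchymal cells as an inactive precursor. In the nervous system, neuregulin acting on ERBB2 and ERBB3 drives Schwann cell growth and survival, and EGFR and MET are both altered in some human gliomas.

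Met and Erbb3 were lower in SMiNs by more than 2-fold, and no member was at least 2-fold higher. Of the 10 members, 2 were at least 2-fold lower and 0 were 2-fold higher or more. Over all 18166 named genes, 8.12% were lower by this fold and 4.27% were higher by it. Of the 7 members at or above the background floor on at least 1 array, 2 were lower by this fold and 0 were higher, beside 12.9% and 5.75% of the 11306 genes that reached it. Counting differences of any size, 5 members were lower in SMiNs, 3 were higher and 2 had identical values on the arrays. At a 1.5-fold threshold, 5 members were lower (16.7% of all named genes) and 1, Areg, was higher in the deposited values (11.3%). Areg was below the floor in C6 glioma, and against the floor it was not 1.5-fold higher. At 4-fold in the deposited values, 1 member was lower (1.35% of all named genes) and 0 were higher (0.633%). The median log2 difference of the members, SMiN minus C6 glioma, was -0.32, against 0.00 over all named genes. Over the 7 members at or above the floor it was -0.65, against -0.08 over all genes that reached it. In bulk RNA, fewer cells that use a gene and less RNA per cell cannot be told apart.

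The floor, set to show which signals stand above those of unexpressed genes, was taken from 1360 olfactory and vomeronasal receptor probe sets, as the 95th percentile of their signals on each array. This floor stood at a log2 signal of 4.79 for C6 glioma and of 4.89 for SMiNs. Of the 10 members, 6 reached it on both arrays, Areg reached it on the SMiN array only, and Erbb4, Btc and Hgf were below it on both. Of the receptor probe sets behind the floor, 59 differed by 2-fold or more upward and 5 downward. The values of Areg lay near this floor and those of Erbb4 and Btc below it, and all of these genes were a little higher in SMiNs. Whether the upward differences seen among the receptor probe sets play a part in them was not tested. Apart from the floor and the means of marker lists, signals were compared between arrays for 1 gene at a time, because signal also depends on the probe set. This dependence also limits the reading of whether a gene reached the floor.

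**Figure D1:**
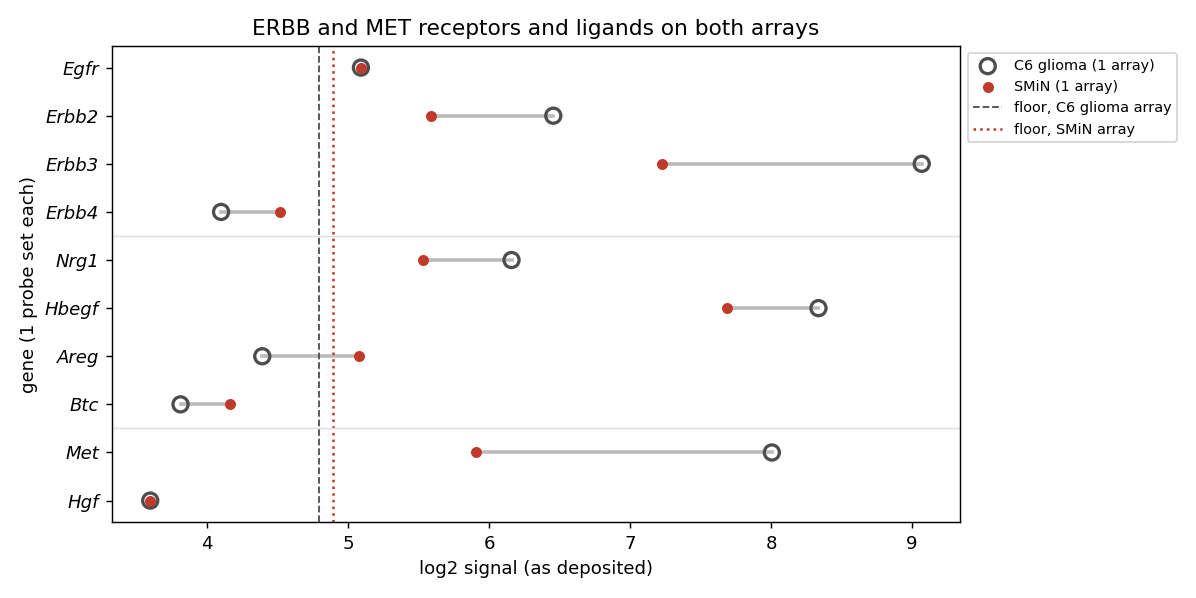
Log2 signal (x axis, as deposited) of the 10 members (y axis) on the C6 glioma array (open circles) and the SMiN array (filled circles), with each array's floor as a vertical line (4.79 and 4.89). Met and Erbb3 have the longest lines between circles, and Erbb4, Btc and Hgf lie left of the floor on both arrays.

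Erbb3, the neuregulin receptor that relies on a partner kinase, gave a log2 signal of 9.07 for C6 glioma and of 7.23 for SMiNs. The signal in SMiNs was 3.58-fold lower, a log2 difference of -1.84, and it was still 2.33 log2 units above the floor. Ordered by difference, Erbb3 was number 322 from the lowest of the 18166 named genes. Erbb3 was therefore lower in SMiNs yet well above background on both arrays.

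Erbb2, the shared partner receptor, differed in the same direction by less. The log2 signals were 6.46 (C6 glioma) and 5.59 (SMiN), 1.82-fold lower in SMiNs, and Erbb2 was number 1915 from the lowest difference. The SMiN value was 0.70 log2 units above the floor, and 59 probe sets on that array had exactly this value. Erbb2 and Erbb3, which signal as a pair, were thus both lower in SMiNs, and only Erbb3 passed 2-fold.

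Egfr, the receptor of EGF, had a log2 signal of 5.09 on both arrays, 0.30 above the floor in C6 glioma and 0.20 above it in SMiNs. The deposited values were identical to the last digit. Identical values were common on these arrays: 4121 of the named genes (22.7%) had them, and so did 28.3% of the 1703 genes whose mean signal lay within 0.25 of that of Egfr. The identity is therefore not read as a measurement that the Egfr transcript was unchanged. No other probe set had this value on either array.

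Erbb4, the other neuregulin receptor, is used by several types of neuron. The log2 signals were 4.10 (C6 glioma) and 4.52 (SMiN), both under the floor, so no fold is given. Both values were shared with many other probe sets, 157 for C6 glioma and 219 for SMiNs, counting Erbb4 itself. Of the 4 ERBB receptors, Erbb2 and Erbb3 were lower in SMiNs, Egfr was equal near the floor, and Erbb4 was below the floor on both arrays. With the floor at the 90th percentile, a setting chosen after seeing the data, the SMiN value of Erbb4 was above it.

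Erbb3 is also a marker of Schwann cells and the neural crest, so the other markers of those cells were examined. Of 8 listed, 6 were measured, of which 2 were lower in SMiNs by 2-fold or more and 1 was higher by as much. Egr2, the transcription factor of myelinating Schwann cells, was 3.04-fold lower, and the cadherin Cdh19 was 2.17-fold lower. Ngfr, the low-affinity neurotrophin receptor, was 4.07-fold higher. Sox10, a factor of neural crest and oligodendrocyte cells, had log2 signals of 8.87 and 8.48, 1.32-fold lower. Foxd3 had 5.37 and 5.39, 1.02-fold higher. Only Pou3f1 of the 6 was below the floor on both arrays, and the mean log2 signal of the 6 was 6.87 in C6 glioma and 6.74 in SMiNs. The part of such cell states in the Erbb3 difference was not tested.

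Among the ligands, Nrg1, which encodes neuregulin 1, the ligand of ERBB3 and ERBB4, gave a log2 signal of 6.16 for C6 glioma and of 5.53 for SMiNs. It was 1.55-fold lower in SMiNs, and both values were above the floor. Hbegf, a membrane-anchored ligand of EGFR and ERBB4, had log2 signals of 8.34 (C6 glioma) and 7.69 (SMiN), 1.57-fold lower in SMiNs. Its SMiN value was 2.80 log2 units above the floor. Both ligands were lower in SMiNs by similar folds that did not reach 2-fold. Nrg1 and Hbegf were number 2813 and number 2723 from the lowest difference, among many genes that were lower by as much.

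Areg, which encodes the EGFR ligand amphiregulin, differed in the opposite direction. The log2 signal was 4.39 for C6 glioma, which is under the floor, and 5.08 for SMiNs, which is 0.19 above it. Against the floor, Areg was at least 1.22-fold higher in SMiNs. Btc, which encodes betacellulin, a ligand of EGFR and ERBB4, had log2 signals of 3.81 and 4.17, below the floor on both arrays. None of the 4 ligands was at least 2-fold higher or lower.

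Areg lies in a row of ERBB ligand genes on rat chromosome 14, in the order Btc, Areg, Ereg and Epgn in the RefSeq annotation. Ereg and Epgn, which encode epiregulin and epigen, were both below the floor on both arrays. Areg was the only gene of the row with a signal above the floor on either array.

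Because forskolin raises cAMP, which acts on genes through CREB and the cAMP response element, the 250 bases before the annotated start were searched on both strands. RefSeq windows (GRCr8) were found for 8 of the 10 members, without Erbb3 and Nrg1, and the window of Met was set aside since its start lay 27923 bases inside the gene. The full palindromic element, TGACGTCA, was in 1 of the 7 remaining windows, that of Areg, and in 1.59% of all 33469 windows of the same length. The windows behind this and the following shares were not filtered by where their start lay, so they are an unlike set. The core of the element, TGACG on either strand, was in the windows of Areg, where it overlaps the full element, and of Hbegf, and in 18.2% of all windows. The letters CTTTGAT, a form of the TCF/LEF motif through which Wnt signaling acts, were in 0 of the 7 windows and in 3.15% of all. A GC box, GGGCGG, was in 5 of the 7 (Egfr, Erbb2, Erbb4, Areg and Btc) and in 30.5% of all. The windows of Areg (chr14:17265642-17265891, minus strand) and Hbegf (chr18:28390221-28390470, minus strand) are printed, 5′ to 3′, because they hold the element or its core, which are in capitals.
Areg: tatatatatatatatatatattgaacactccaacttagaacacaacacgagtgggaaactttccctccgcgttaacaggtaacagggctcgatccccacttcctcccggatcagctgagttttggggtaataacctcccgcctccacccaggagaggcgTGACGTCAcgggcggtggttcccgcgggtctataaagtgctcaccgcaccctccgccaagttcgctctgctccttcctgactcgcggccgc
Hbegf: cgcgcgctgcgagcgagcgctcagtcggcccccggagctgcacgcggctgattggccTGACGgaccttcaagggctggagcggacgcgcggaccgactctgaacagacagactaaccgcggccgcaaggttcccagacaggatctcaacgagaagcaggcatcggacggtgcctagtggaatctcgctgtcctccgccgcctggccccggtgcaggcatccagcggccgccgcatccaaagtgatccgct

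In Areg the full element lay 91 to 84 bases before the start, next to a GC box at 82 to 77 and a TATA motif (TATAAA, in 12.9% of all windows) at 61 to 56. In Hbegf the core lay 193 to 189 bases before the start. The genes that hold these letters differed in opposite directions, with Areg higher in SMiNs and Hbegf lower. A match of letters is a description of the window and not a measured site.

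Met, the receptor of HGF, had the lowest difference of the 10 members. The log2 signals were 8.01 (C6 glioma) and 5.90 (SMiN), a difference of -2.10. The signal was thus 4.29-fold lower in SMiNs, where it lay 1.01 log2 units above the floor. Met was number 207 from the lowest difference of the named genes, and the only member to differ by at least 4-fold in the deposited values. After quantile normalization its difference was -1.95, short of 4-fold.

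Hgf, its ligand, had a log2 signal of 3.60 on both arrays, which relative to the floor is -1.19 for C6 glioma and -1.29 for SMiNs. This pair of values was shared by 65 probe sets, Hgf included, and it is not read as a level of Hgf. Of 7 markers of fibroblasts and other mesenchymal cells, the cells known to make HGF, 3 were lower in SMiNs by 2-fold or more and 0 were higher by as much. The shares over all named genes were 8.12% lower and 4.27% higher. The lower markers were Postn (at least 18.3-fold), Pdgfrb (5.39-fold) and Col1a1 (4.76-fold), while Dcn and Lum were below the floor on both arrays. Col1a2, above the floor on both, was higher in SMiNs by less than 2-fold (log2 signals of 5.05 and 5.54). Col3a1 had a log2 signal of 5.65 on both arrays. The mean log2 signal of the 7 was 5.95 in C6 glioma and 4.80 in SMiNs, while their median log2 difference was 0.00. The receptor Met was thus measured above background on both arrays, and its ligand on neither.

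**Figure D2:**
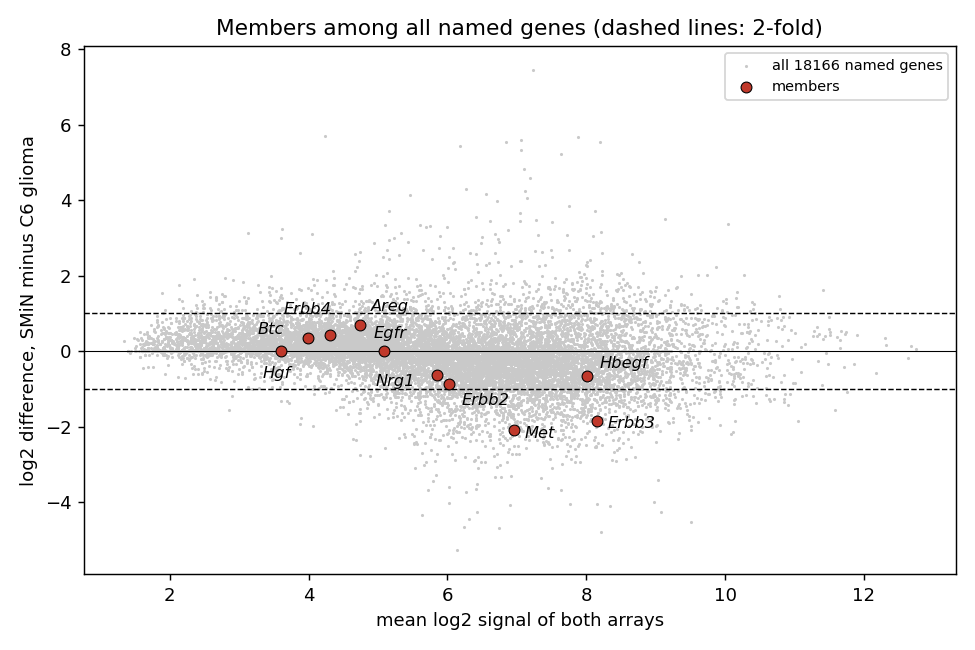
Log2 difference, SMiN minus C6 glioma (y axis), against the mean log2 signal of both arrays (x axis) for all 18166 named genes (gray) and the 10 members (red), with dashed lines at 2-fold. Met and Erbb3 lie below the lower line, and the other 8 members lie between the lines.

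The other ligands of the family were near or below background. Of 7 (Egf, Tgfa, Ereg, Epgn, Nrg2, Nrg3 and Nrg4), 0 were lower in SMiNs by 2-fold or more, 0 were higher by as much, 5 were below the floor on both arrays, and the median log2 difference was 0.16. Over all named genes 8.12% were lower and 4.27% higher by this fold. Nrg2, another neuregulin, had log2 signals of 5.53 and 5.23, 1.23-fold lower. Tgfa, an EGFR ligand, had 4.35 and 5.01, at least 1.17-fold higher against the floor. As for Areg, the Tgfa signal was above the floor in SMiNs only.

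Genes that release ERBB ligands from the membrane or activate HGF differed in both directions. Of 19 listed, 18 were measured, of which 2 were lower in SMiNs by 2-fold or more and 1 was higher by as much. The shares over all named genes were 8.12% lower and 4.27% higher, and the counts are not read as particular to this list. Of the 18, 9 were below the floor on both arrays, and the median log2 difference was 0.00, as over all named genes. Adam12, a metalloprotease that can shed HB-EGF, had log2 signals of 9.37 and 6.44, 7.62-fold lower. Rhbdf1, an inactive rhomboid that helps ADAM17 to mature, had 7.63 and 6.17, 2.75-fold lower. Adam17, the main sheddase of amphiregulin, HB-EGF and TGF-alpha, had 8.38 and 7.40, 1.97-fold lower and so just short of 2-fold. Plat, the tissue plasminogen activator, had 8.13 and 9.21, 2.12-fold higher. Of the proteases most closely tied to HGF activation, Hgfac, St14 and Hpn were below the floor on both arrays.

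Genes listed as limiting ERBB and MET signaling, many of them through ubiquitination and endocytosis of the receptors, were examined next. The effect of each gene on the receptors in these cells was not tested. Of 21 listed, 20 were measured, 5 were lower by 2-fold or more and 0 were higher by as much, and the median log2 difference was -0.68. Over all genes at or above the floor, which 18 of the 20 reached, 12.9% were lower and 5.75% higher by this fold, and the median was -0.08. Sh3kbp1, an adaptor that links CBL to endocytosis, had log2 signals of 8.97 and 6.61, 5.16-fold lower. Stam, which sorts ubiquitinated receptors on endosomes, was 2.64-fold lower, and Socs5, which promotes EGFR turnover, was 2.45-fold lower. Cblb, a ubiquitin ligase of activated receptors, was 2.32-fold lower. Errfi1, the inducible inhibitor of ERBB kinases, had a log2 signal of 8.53 on both arrays. Counting differences of any size, 15 of the 20 were lower and 3 were higher, among them Rnf41 (1.47-fold) and Lrig1 (1.28-fold).

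Adaptors and effectors next to the receptors were examined in the same way. Of 35 listed, 32 were measured, 6 were lower by 2-fold or more and 0 were higher by as much, with a median log2 difference of -0.36. The shares of all genes at or above the floor, which 30 of the 32 reached, were 12.9% and 5.75%. Shc3, a neuronal form of the adaptor SHC, was 2.71-fold lower, from 7.70 to 6.27 on the log2 scale. Gab2 and Gab1 were 2.60-fold and 2.49-fold lower, and Gab1 is the main docking protein of MET. Vav3 was 2.47-fold lower, with log2 signals of 7.40 and 6.10. The adaptor Grb2 had log2 signals of 7.78 and 7.27, 1.42-fold lower. Counting differences of any size, 22 of the 32 were lower, 7 were higher and 3 were equal. Nck1 had log2 signals of 5.86 and 6.82, 1.94-fold higher and so just short of 2-fold. In neither of these lists was a gene at least 2-fold higher in SMiNs in the deposited values.

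**Figure D3:**
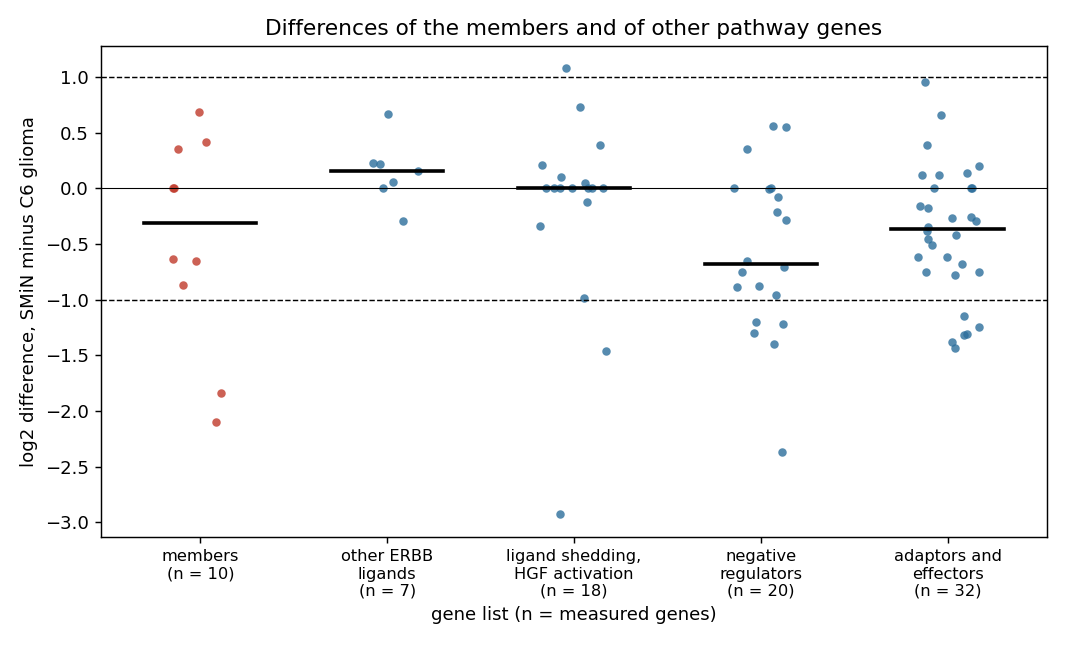
Log2 difference, SMiN minus C6 glioma (y axis), of each measured gene in the members (red, n = 10) and in 4 lists of other pathway genes (blue), with list medians as bars and dashed lines at 2-fold. The medians run from -0.68 for the negative regulators to 0.16 for the other ERBB ligands.

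The directions of the 5 members that were lower and above the floor on both arrays held over the scalings tried. Erbb3 differed by -1.66 to -1.90 and Met by -1.95 to -2.16 on the log2 scale over the deposited values, median centring and quantile normalization, and both stayed past 2-fold. Erbb2 ranged from -0.77 to -0.93, Nrg1 from -0.56 to -0.69 and Hbegf from -0.44 to -0.71. Areg differed by 0.61 to 0.69 over the same scalings, but by 0.29 with values below the floor set to the floor. Egfr, equal in the deposited values, was at -0.06 and -0.04 after the rescalings, and Hgf at -0.06 and -0.13. The rescalings moved the median of all named genes by -0.06 each.

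**Figure D4:**
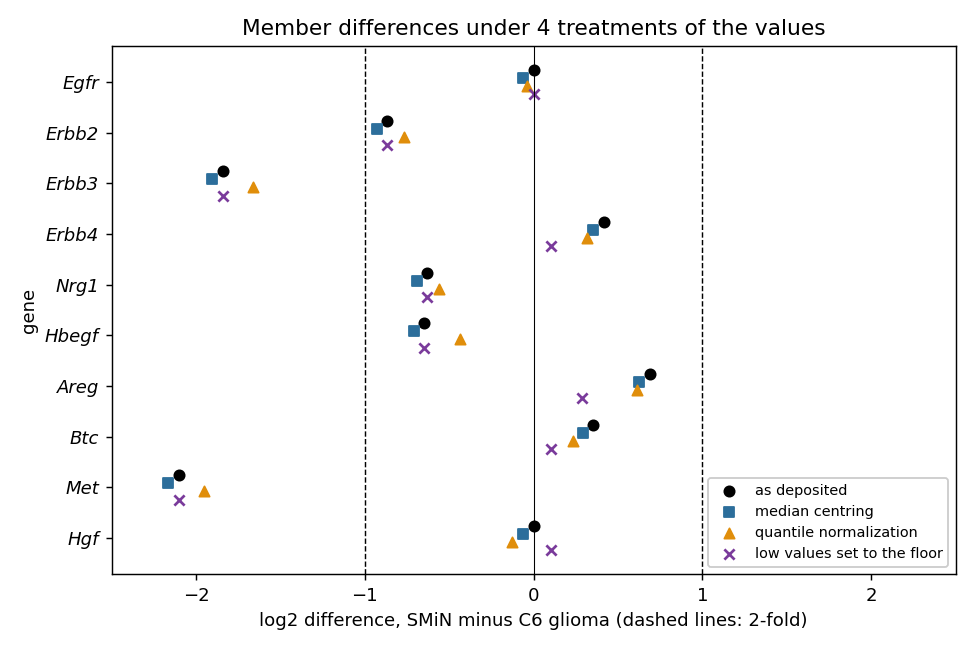
Log2 difference, SMiN minus C6 glioma (x axis), of the 10 members (y axis) as deposited, after median centring, after quantile normalization and with values below the floor set to the floor. In all 4 settings Met and Erbb3 lie left of the lower 2-fold line (dashed) and no other member crosses either line. With the floor set, Erbb4, Btc and Hgf sit at 0.10, the gap between the arrays' floors.

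The labelled cell type was checked on the same arrays. None of 8 glial and glioma markers was below the floor on both arrays, and 4 were at least 2-fold lower in SMiNs, Pdgfra (16.6-fold), Cspg4 (at least 8.59-fold), Vim (2.95-fold) and Nes (2.12-fold). Of the other 4, S100b was 1.72-fold higher (log2 signals of 9.28 and 10.06). Gfap and Sox10 were lower by less than 2-fold, and Olig2 had identical values. Lower by 2-fold or more were 8.12% of all named genes and 12.9% of those that reached the floor. Of 9 neuronal markers, 1 was at least 2-fold higher, the tubulin Tubb3 (2.24-fold), and 3 were below the floor on both arrays. The share of the 18166 named genes higher by this fold was 4.27%. Of the remaining neuronal markers, Snap25 (1.41-fold), Syp (1.27-fold) and Map2 (1.11-fold) were higher in SMiNs by less than 2-fold. Nefm (1.08-fold) and Rbfox3 (1.03-fold) were slightly lower. Of 6 microglia and macrophage markers, 5 were below the floor on both arrays. Array medians were 4.79 for C6 glioma and 4.85 for SMiNs over 36685 probe sets.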

How the data were processed

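Total RNA of 1 C6 glioma and 1 SMiN sample was amplified with a whole-transcript kit, labeled, hybridized to Affymetrix arrays and analysed with Affymetrix GeneChip Command Console Software by the authors. For each probe set the authors deposited a log2 signal. How it was summarized and normalized is not given in the sources used here. They were used as deposited. The number of arrays limits the precision.

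Of 36685 probe sets, 18511 had 1 gene symbol in the platform annotation, 575 had several and 17599 had none. A gene with more than 1 probe set was represented by that of the highest mean signal. The Entrez numbers of all 10 members matched RefSeq. A fold of a gene below the floor on its lower array is a bound against that floor, written "at least". Called means at least 2-fold.

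The members and lists were chosen with earlier results of these data known. Named were all members and up to 4 genes each way at least 2-fold different in each list. Ereg, Epgn, Adam17, Hgfac, St14, Hpn, Errfi1, Grb2, Nck1, Nrg2, Tgfa, Rnf41 and Lrig1 were added after their values were seen. So were the cell type markers that differed by less than 2-fold. The calculation was checked on simulated data with known changes, which is no test of the counts reported. The alternatives were median centring, quantile normalization, floor settings, the probe set per gene and fold thresholds. Python 3.11.15, numpy 2.4.6, pandas 2.3.3 and matplotlib 3.10.9 were used.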

Additional observations from a re-analysis of the deposited data

How the results depend on the processing

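Met and Erbb3 were the 2 members at least 2-fold lower under median centring, quantile normalization, values below the floor set to the floor, and the filter on low values, and 0 members were at least 2-fold higher under these. Setting values to the floor and the filter could not change Met or Erbb3, which were above the floor on both arrays. Median centring moved every gene by the same -0.06. The other rules for the probe set could change nothing, since each member has 1. In the deposited values, 5 members were lower at a 1.5-fold threshold (16.7% of all named genes) and 1, Areg, was higher (11.3%). At 4-fold 1 was lower and 0 higher. Against the floor, Areg was not 1.5-fold higher. After quantile normalization Met fell short of 4-fold, and Nrg1 and Hbegf fell short of 1.5-fold. The median difference of the members was -0.32 as deposited, -0.38 after median centring, -0.28 after quantile normalization and -0.65 without the members below the floor on both arrays. It was -0.64 without members of equal value, an alternative chosen after seeing the data. Quantile normalization gave 1 adaptor or effector gene at least 2-fold higher, against 0 as deposited. No other count of the pathway lists moved by over 1.5 times.

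A floor at the 90th or 99th percentile, also chosen after seeing the data, left 8 or 5 members at or above it on at least 1 array, against 7. The member added at the 90th percentile was Erbb4. With the 99th percentile, Egfr and Areg were below it on both arrays, and Met, Erbb2 and Nrg1 on the SMiN array. No paired analysis was possible because each condition has 1 array.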

Other observations

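ERBB and MET receptors are prominent in epithelial cells, so 5 epithelial markers were also examined, and they differed in both directions. Krt19, a keratin of simple epithelia, gave log2 signals of 4.03 (C6 glioma, under the floor) and 6.57 (SMiN), at least 3.44-fold higher in SMiNs. Krt8, another such keratin, had 4.71 and 5.51, at least 1.64-fold higher, while its partner Krt18 had 3.44 on both arrays, below the floor. Epcam, an epithelial adhesion molecule, had 6.94 and 5.94, 2.01-fold lower, and Cdh1, which encodes E-cadherin, was below the floor on both arrays. No second array of either condition was analysed here to repeat these values.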
